A study of Mus musculus with 24 samples.

Results

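The amino acid transporter genes described here are the 61 protein-coding genes of 7 solute carrier families (Slc1a, Slc3a, Slc6a, Slc7a, Slc36a, Slc38a and Slc43a) among the 56748 genes of the count table. The rule uses names and biotype only, though the set was picked with earlier results of these data known. Messenger RNA was sequenced in bulk from 24 libraries of wild-type mouse T cells kept in culture, 6 from each of activated CD8, Th1, Th17 and regulatory (Treg) cells. In every cell type 5 libraries had received 1 kappa opioid receptor (KOR) agonist each at 0.1 µM, with the code names WMS-64, WMS-75 and WMS-76 as well as WMS-83 and WMS-200, and 1 library had received the vehicle DMSO, for at most 5 days. The CD4 subsets were polarized in vitro, and no strain or age is given in the sources used here. The column names of the CD8 libraries read Tc1 and their titles CD8+ T cells. Polarization is stated here for the CD4 subsets only. Within a cell type every library had its own treatment, and nothing states that the 6 came from separate animals. The p-values below therefore measure the spread between these libraries only. The column names also carry a WT number of unexplained meaning. It is 4 in every Th1 library and in no other, and 2 in every CD8 library. A difference between Th1 and another cell type thus cannot be told apart from a difference in WT number.

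T cells that are activated grow and divide, and they import amino acids through plasma membrane carriers. Slc7a5 (LAT1) forms a heterodimer with the heavy chain Slc3a2 (CD98) and takes up leucine and other large neutral amino acids in exchange for glutamine, which Slc1a5 (ASCT2) and Slc38a family carriers bring in. Other carriers sit on the lysosome, where amino acid levels are sensed by the kinase complex mTORC1. The set also holds relatives with other substrates, among them the neurotransmitter, taurine and creatine importers of the Slc6a family.

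Total counts were 16842562 to 20937496 in CD8, 16933512 to 21946887 in Th1, 16271300 to 21608525 in Th17 and 15188284 to 18500457 in Treg libraries. Levels are given as CPM, read counts relative to the library total after scaling by the trimmed mean of M values (TMM). Each label was compared with defining markers. Cd8a averaged 388 CPM in CD8, 13.9 in Th1, 84.0 in Th17 and 7.26 in Treg, and Foxp3 averaged 3.73, 7.22, 33.9 and 281 CPM in CD8, Th1, Th17 and Treg. Tbx21 averaged 224 CPM in CD8, against 201 in Th1, 9.73 in Th17 and 28.7 in Treg. Il17f averaged 830.1 CPM in Th17 and at most 1.81 in the other types, so that Cd8a marked CD8, Il17f Th17 and Foxp3 Treg, while Tbx21 was high in both CD8 and Th1. Ribosomal protein genes took 1.67 to 2.88% of the counts in Treg libraries and 9.68 to 12.8% in all others. Mitochondrial genes took 0.934 to 1.498% in Treg libraries and 0.215 to 0.759% in all others. The part of these differences in the Treg results below was not tested. Summed levels of 11 stromal markers were 31.7 to 41.6 CPM in CD8, 31.1 to 36.2 in Th1, 15.2 to 19.3 in Th17 and 48.0 to 61.2 in Treg. Most of that sum in Treg came from Pecam1, which T cells also express, at 41.4 to 54.4 CPM. The stromal marker Lum went the other way. Its log2 fold change over Treg was 7.77 ± 0.38 in CD8 and 7.31 ± 0.39 in Th1 (SE). Over Th17 it was 4.79 ± 0.29 in CD8 and 4.32 ± 0.29 in Th1. Col1a1 was lower in CD8 (-2.23 ± 0.41) and Th1 (-1.36 ± 0.39) than in Treg. The part of stromal cells in the differences below was not tested. Summed levels of 14 myeloid markers were 47.1 to 49.1 CPM in CD8, 34.5 to 39.8 in Th1, 14.4 to 23.8 in Th17 and 38.9 to 42.9 in Treg, with S100a9 at 0 in every library. Summed levels of 10 B cell markers did not exceed 20.4 CPM in any library. In bulk RNA, fewer cells of a type and less RNA per cell cannot be told apart.

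Of the 61 transporter genes, 30 had enough reads to be tested. Slc3a and Slc43a passed entirely (2 of 2 and 3 of 3), Slc1a passed with 4 of 7 genes, Slc36a with 3 of 4, Slc38a with 6 of 11, Slc7a with 8 of 15 and Slc6a with 4 of 19. The 31 genes left out held 1036 of the 1262793 reads of the set. Slc1a6, Slc6a14, Slc7a12 and Slc7a13 had no read at all, 20 genes had 1 to 50 reads over the 24 libraries and 7 had more, up to 203 for Slc6a12. The whole set took a similar share of the counts in each cell type: 0.268 to 0.297% in CD8, 0.258 to 0.291% in Th1, 0.265 to 0.306% in Th17 and 0.264 to 0.291% in Treg. On the TMM scale its summed level was 2987 ± 115 CPM in CD8, 2898 ± 151 in Th1, 2993 ± 81.1 in Th17 and 2328 ± 70.9 in Treg (SD, n = 6 each). The lower sum in Treg thus depended on the scaling.

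What the set was made of differed more between cell types than its size. To compare genes with each other, levels were divided by gene length and expressed as a share of the summed CPM per kilobase of all 61 genes. Slc7a5 led in CD8, Th1 and Th17, with 27.2 ± 0.526%, 27.3 ± 0.827% and 22.3 ± 1.16% of the set, and its partner Slc3a2 came next with 21.3, 19.4 and 17.0%. In Treg, Slc7a5 ranked 6 with 6.26 ± 1.01% and Slc3a2 ranked 4 with 8.14 ± 0.413%. Slc1a5 ranked 3 in CD8, Th1 and Th17, with 15.5, 18.3 and 14.1%, and led in Treg with 30.1 ± 2.87%. The next largest shares in Treg were those of Slc38a2 at 9.71% and of the taurine importer Slc6a6 at 8.32%.

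**Figure D1:**
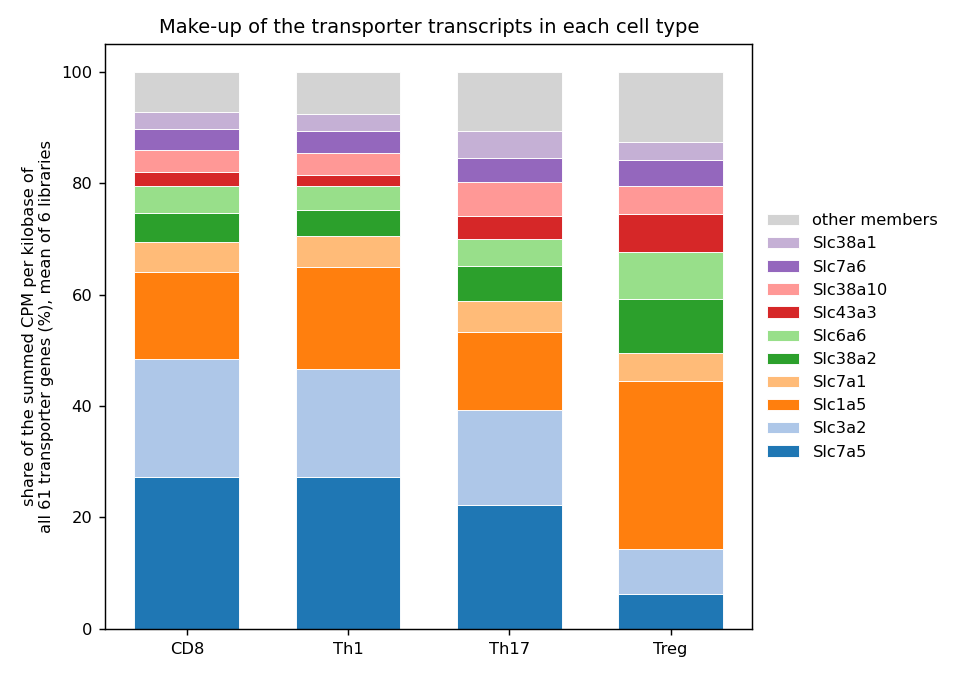
Stacked bars give the mean share (%) of each gene in the summed CPM per kilobase of the 61 transporter genes, for CD8, Th1, Th17 and Treg (6 libraries each). Slc7a5 and Slc3a2, the lowest segments, are the largest in CD8, Th1 and Th17, and Slc1a5 is the largest in Treg with 30.1%.

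A gene is called here when its adjusted p in edgeR's quasi-likelihood test is under 0.05, with Benjamini-Hochberg adjustment over all 15885 genes tested. By the test for any difference between the 4 cell types, 28 of the 30 tested transporter genes were called, against 87.4% of all tested genes. The exceptions were Slc36a3 and Slc3a1, both close to the detection limit. Treg stood furthest from the rest. In CD8 over Treg, 26 of 30 were called (11 higher, 15 lower), against 78% of all genes (37.8% higher, 40.2% lower). In Th1 over Treg 25 were called (10 higher, 15 lower), against 77.5% (37.3% higher, 40.1% lower), and in Th17 over Treg 24 (11 higher, 13 lower), against 74.9% (36.5% higher, 38.3% lower). The share of transporter genes called was 86.7, 83.3 and 80%, close to that background. The median log2 fold change of the 30 genes was -0.31 for CD8 over Treg, -0.49 for Th1 over Treg and -0.22 for Th17 over Treg, and that of all genes was -0.08, -0.09 and -0.09. With library size as the only scaling, the median of all genes moved by -0.34, -0.36 and -0.34, and the calls split into 9 higher and 17 lower, 7 and 18, and 8 and 16.

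In all 3 comparisons at once, 11 of the 30 genes (36.7%) were higher in Treg, against 28.6% of all tested genes, and 9 (30%) were lower in Treg, against 28.6%. Neither share stood far from its background. The 11 were Slc1a3, Slc1a5, Slc36a1, Slc36a4, Slc38a2, Slc38a6, Slc38a9, Slc43a1, Slc43a3, Slc6a6 and Slc7a2. The 9 were Slc1a4, Slc38a1, Slc38a10, Slc3a2, Slc6a9, Slc7a1, Slc7a3, Slc7a5 and Slc7a6. For 7 genes every Treg library lay above the other 18 (23.3%, against 17.6% of all genes), and for 6 every Treg library lay below them (20%, against 21.9%). Under library-size scaling Slc7a6 lost all 3 calls, with values just below 0 (adjusted p = 0.138, 0.353 and 0.826 for CD8, Th1 and Th17 over Treg). Slc38a10 then passed in the opposite direction for CD8 (adjusted p = 0.0475) and Th1 (0.0108) over Treg. Slc38a1 and Slc6a9 each lost 1 of their 3 calls.

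**Figure D2:**
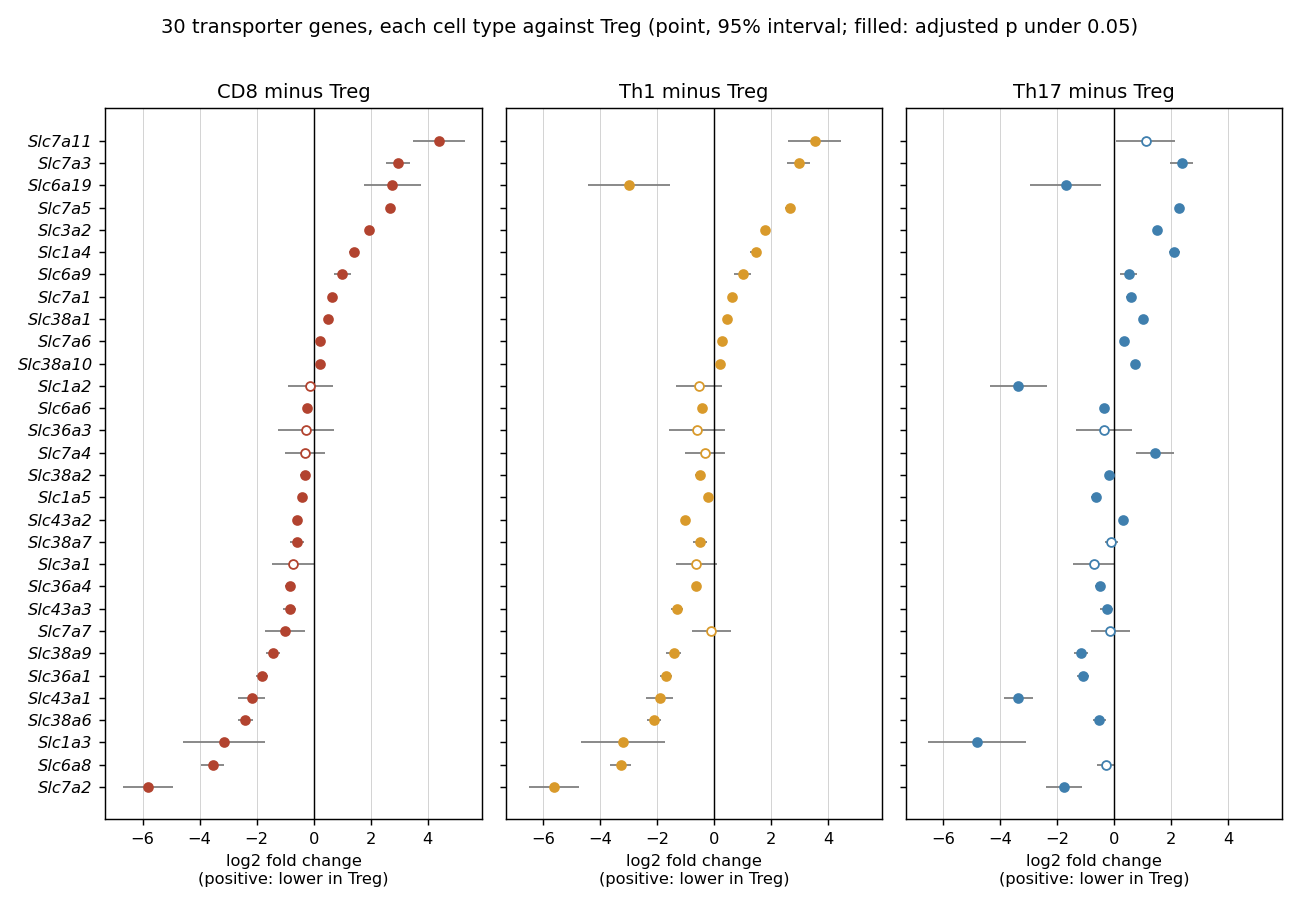
Log2 fold changes (x axis) of the 30 tested transporter genes (y axis) in CD8, Th1 and Th17 over Treg, as points with 95% intervals; filled points passed the test. Slc7a5, Slc7a3, Slc3a2 and Slc1a4 lie right of 0 in all 3 panels, and Slc7a2, Slc43a1, Slc36a1 and Slc38a9 lie left of 0.

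The heavy chain Slc3a2 and its main light chain Slc7a5 differed most between Treg and the other cell types in level per kilobase. Slc7a5 ranged from 526 to 602 CPM in CD8 (median 566), 510.2 to 610.3 in Th1 (536), 397 to 463 in Th17 (425) and 69.0 to 104 in Treg (84.9). No Treg library came near the others, and Th17 libraries lay below all CD8 and Th1 libraries. Over Treg, the log2 fold change was 2.69 ± 0.08 in CD8, 2.66 ± 0.08 in Th1 and 2.29 ± 0.08 in Th17 (SE), with adjusted p of 3.0e-20, 4.1e-20 and 8.6e-19. Among the DMSO libraries alone, Slc7a5 stood at 602 CPM in CD8, 604 in Th1, 397 in Th17 and 80.0 in Treg. Slc3a2 ranged from 384 to 450.3 CPM in CD8 (median 426), 345 to 408 in Th1 (368), 277 to 336 in Th17 (308) and 100.5 to 114 in Treg (110.0). Treg libraries were again below all others, with log2 fold changes over Treg of 1.95 ± 0.05 in CD8, 1.78 ± 0.05 in Th1 and 1.51 ± 0.05 in Th17. Because Slc7a5 differed more than its partner, the ratio of Slc7a5 to Slc3a2 per kilobase was 1.28 ± 0.0636 in CD8, 1.41 ± 0.0556 in Th1, 1.32 ± 0.0432 in Th17 and 0.768 ± 0.108 in Treg (SD, n = 6 each). The ratio was 1.17 or more in every CD8, Th1 and Th17 library and 0.871 or less in every Treg library.

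The other light chains behaved differently. Slc7a6 (y+LAT2), which exchanges cationic against neutral amino acids, ranged from 86.9 to 104 CPM in CD8 (median 95.1), 93.1 to 106 in Th1 (100.1), 97.0 to 107 in Th17 (103) and 71.0 to 93.8 in Treg (80.4). Its difference from Treg was small, at log2 fold changes of 0.24 ± 0.07 in CD8, 0.30 ± 0.07 in Th1 and 0.33 ± 0.07 in Th17, and CD8 and Th1 overlapped with Treg while Th17 did not. Slc7a6 accordingly made up 12.1% of the light chain transcripts per kilobase in CD8, 12.8% in Th1, 16.2% in Th17 and 42.6% in Treg. Slc7a11 (xCT), the cystine importer, was low and graded. It ranged from 2.45 to 3.52 CPM in CD8 (median 3.01), 1.08 to 2.40 in Th1 (1.63), 0.064 to 0.560 in Th17 (0.282) and 0 to 0.319 in Treg (0.120). CD8 lay above Th1 and Th1 above Th17 in every library, while Th17 and Treg overlapped. For CD8 over Th17 the log2 fold change was 3.29 ± 0.40 (adjusted p = 1.3e-07) and 2.43 ± 0.41 for Th1 over Th17 (1.7e-05), but 0.86 ± 0.34 for CD8 over Th1 did not pass (adjusted p = 0.0951). CD8 over Th1 did pass with DESeq2 (adjusted p = 0.0467), with limma-voom (0.0322) and without the Treg libraries (0.0214). Th17 over Treg (1.10, adjusted p = 0.0542) passed with DESeq2 (0.0431), limma-voom (0.0352), gene length offsets (0.0148) and without the DMSO libraries (0.0202). The renal light chain relative Slc7a7 (y+LAT1) stayed between 0.247 and 2.57 CPM in all libraries, and its gene overlaps Oxa1l, which had 31616 reads against 663 for Slc7a7, so its counts are uncertain. The same holds for Slc3a1, which overlaps Prepl.

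The cationic carriers Slc7a1, Slc7a2 and Slc7a3, which import arginine and lysine, differed between cell types in opposite directions. Slc7a1 (CAT1) was the main one, with 318 to 378 CPM in CD8 (median 350.1), 316 to 376 in Th1 (334), 296 to 356 in Th17 (329) and 180 to 254 in Treg (221). CD8, Th1 and Th17 overlapped and every Treg library lay below, with log2 fold changes over Treg of 0.65 ± 0.08, 0.64 ± 0.08 and 0.58 ± 0.08. Slc7a3 (CAT3) ran between 22.5 and 27.8 CPM in CD8 (median 25.3), 20.4 and 31.7 in Th1 (24.9), 13.91 and 18.005 in Th17 (17.1) and 1.33 and 6.01 in Treg (3.21). Each step from Th1 and CD8 to Th17 and on to Treg was free of overlap, and the log2 fold change over Treg was 2.96 ± 0.20 in CD8, 2.98 ± 0.20 in Th1 and 2.37 ± 0.20 in Th17. Slc7a2 (CAT2), an inducible form best known in macrophages, had the opposite order. It ran between 0 and 0.274 CPM in CD8 (median 0.103), 0 and 0.421 in Th1 (0.104), 1.52 and 2.66 in Th17 (2.11) and 5.52 and 9.47 in Treg (6.77). Reads summed to 13 in CD8, 15 in Th1, 227 in Th17 and 872 in Treg, and both steps up were free of overlap. Log2 fold changes were -5.81 ± 0.43 for CD8 over Treg, -5.61 ± 0.42 for Th1 over Treg and -1.77 ± 0.31 for Th17 over Treg. Of the 14 myeloid and dendritic markers, whose sums are given above, 5 passed the filter. Zbtb46 was the highest of them in Treg, with a mean of 30.4 CPM against 4.40 in Th17. Cd14 and Lyz2, the latter not past the filter, reached at most 0.148 and 0.735 CPM in Treg. Zbtb46 was also higher in CD8 (2.42 ± 0.11) and Th1 (2.26 ± 0.11) than in Th17, and CD8 over Treg was only -0.38 ± 0.10. Itgax was lower in Th1 than in Treg (-2.42 ± 0.57), Th17 (-2.37 ± 0.57) and CD8. Cd14 (3.43 ± 0.63) and Flt3 (2.06 ± 0.49) were higher in Th1 than in Treg, and Cd68 was higher in CD8 than in Treg (1.40 ± 0.12). The part of such cells in the Slc7a2 difference was not tested. Per kilobase Slc7a2 still amounted to only 0.0403 ± 0.006 of Slc7a1 in Treg. Slc7a4, a relative without established transport, was highest in Th17 with 2.24 to 5.46 CPM (median 3.98).

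**Figure D3:**
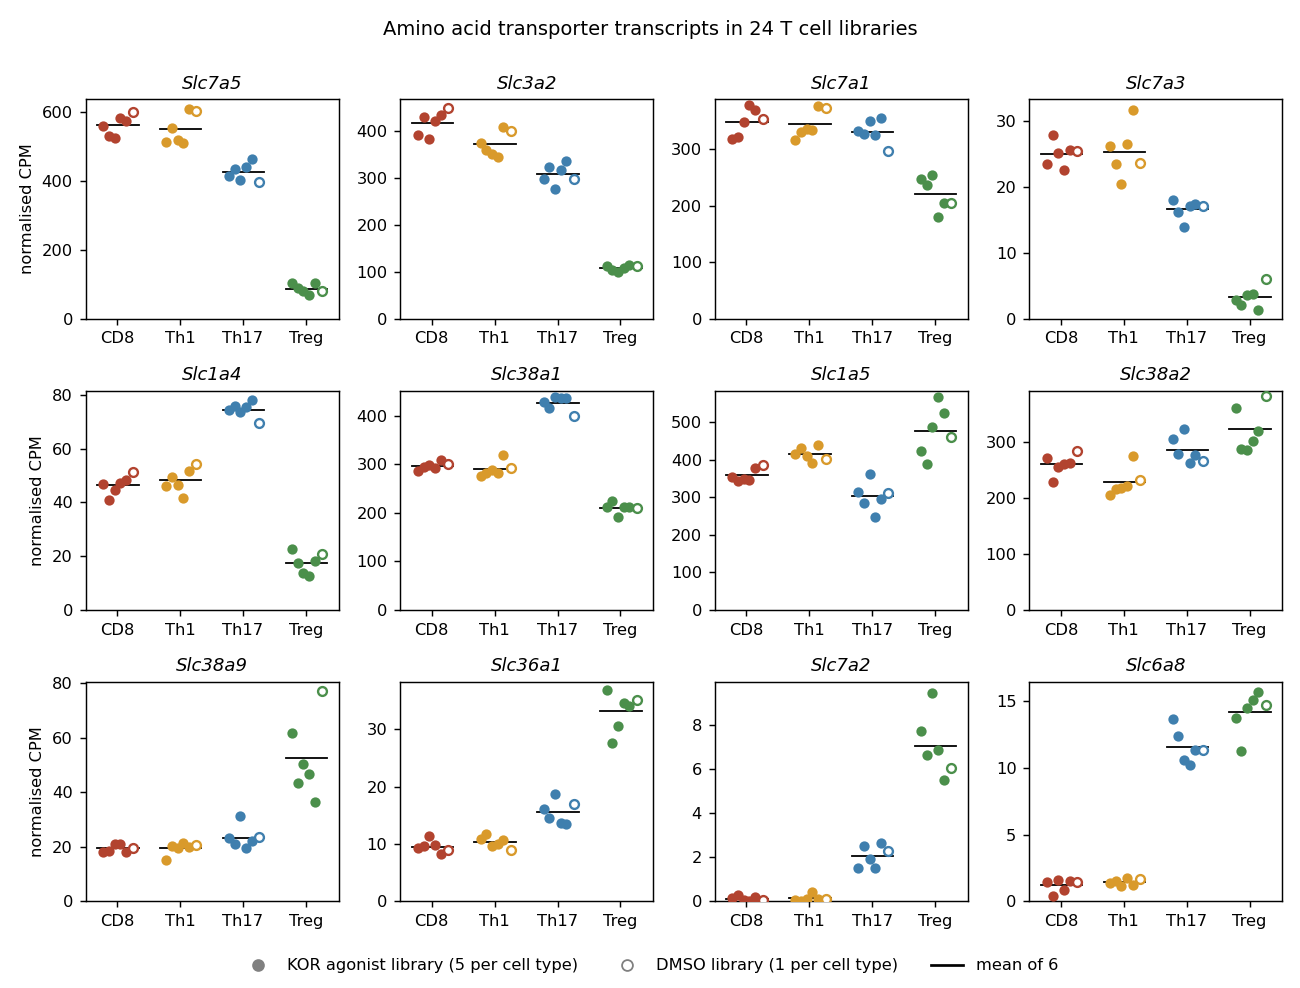
Normalised CPM (y axis, linear, from 0) of 12 transporter genes in every library of CD8, Th1, Th17 and Treg; filled points are agonist libraries, open points DMSO libraries and lines means of 6. The DMSO point lies within or next to the agonist points of its cell type in most panels, and Slc7a5, Slc3a2 and Slc7a3 are lowest in Treg while Slc36a1 and Slc7a2 are highest there.

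Among the exchangers of small neutral amino acids, Slc1a5 and Slc1a4 moved apart. Slc1a5 (ASCT2), the glutamine exchanger, ranged from 344 to 386 CPM in CD8 (median 352), 390.4 to 439 in Th1 (412), 248 to 362 in Th17 (304) and 389 to 568 in Treg (474). Treg lay above CD8 and Th17 without overlap but shared its range with Th1. The log2 fold change over Treg was -0.40 ± 0.08 in CD8, -0.20 ± 0.08 in Th1 and -0.65 ± 0.08 in Th17, and the adjusted p for Th1 was 0.0291. That last call was lost when 1 of 7 Th1 or Treg libraries was left out, and without the Treg WMS-76 library the value was -0.10 (adjusted p = 0.202). Slc1a4 (ASCT1), which carries alanine, serine and cysteine, ranged from 40.9 to 51.2 CPM in CD8 (median 47.0), 41.5 to 54.3 in Th1 (48.0), 69.7 to 78.2 in Th17 (74.9) and 12.8 to 22.5 in Treg (17.8). Its Th17 libraries were above all others and its Treg libraries below all others. Its log2 fold change was -0.68 ± 0.09 for CD8 over Th17, and over Treg it was 1.41 ± 0.09 in CD8, 1.47 ± 0.09 in Th1 and 2.10 ± 0.09 in Th17. The glutamate importers Slc1a2 and Slc1a3 were near the detection limit. Slc1a2 averaged 1.58 CPM in CD8, 1.22 in Th1, 0.164 in Th17 and 1.70 in Treg, and Slc1a3 averaged 0.131, 0.120, 0.0361 and 1.15 CPM in CD8, Th1, Th17 and Treg.

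The proximal promoters of Slc7a11 and Slc1a4 hold matches to TGATGNAA, the core of the amino acid response element through which ATF4 acts. Those of Slc36a1, Slc38a7 and Slc43a1 hold CACGTG, the E-box read by Myc and by the lysosomal regulator TFEB. These are the tested genes with a match to either motif in the stretch shown, apart from Slc7a7, which holds TGATGNAA and whose counts are uncertain. A link between these motifs and the levels of the genes was not tested. The stretches from 100 bases before to 10 bases after the annotated start are shown 5′ to 3′ on the strand of the gene (RefSeq, build GRCm38.p6), with matches in capitals; in Slc36a1 and Slc43a1 the capitals also mark TGACNNNGC, the antioxidant response element.
Slc7a11: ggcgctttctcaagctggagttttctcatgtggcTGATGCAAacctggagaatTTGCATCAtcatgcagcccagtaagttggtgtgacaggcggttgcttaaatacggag
Slc1a4: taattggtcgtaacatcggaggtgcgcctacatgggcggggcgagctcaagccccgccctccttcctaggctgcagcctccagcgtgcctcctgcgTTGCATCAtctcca
Slc36a1: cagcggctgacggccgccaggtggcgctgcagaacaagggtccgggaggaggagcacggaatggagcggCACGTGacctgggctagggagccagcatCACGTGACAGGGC
Slc38a7: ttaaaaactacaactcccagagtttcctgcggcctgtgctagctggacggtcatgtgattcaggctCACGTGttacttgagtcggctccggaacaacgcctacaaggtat
Slc43a1: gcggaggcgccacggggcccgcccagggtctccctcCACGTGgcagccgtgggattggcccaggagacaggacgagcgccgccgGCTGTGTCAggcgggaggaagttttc
They lie at chr3:50443604-50443713 (minus strand), chr11:20332704-20332813 (minus), chr11:55204240-55204349 (plus), chr8:95853482-95853591 (minus) and chr2:84840223-84840332 (plus), in the order shown. Slc7a11 has matches beginning 66 and 47 bases before its start and Slc1a4 has 1 match across its start. In Slc36a1 the second CACGTG shares its last bases with the TGACNNNGC match. The promoter table matched 43 of the 61 genes (21 of the 30 tested) with 64 windows of 300 bases. Searched on both strands, TGATGNAA was in 7.81% of these windows and in 3.97% of all 32851, CACGTG in 14.1% and 7.15%, and TGACNNNGC in 17.2% and 12.4%. The shares include genes with too few reads for a test. Among these were Slc7a14, Slc1a7, Slc6a16, Slc1a6, Slc6a3 and Slc38a5 with CACGTG, and Slc6a21 with TGATGNAA. The shares therefore do not describe the tested genes. Of the tested genes, Slc7a1, Slc7a6, Slc6a9 and Slc38a2 also hold TGACNNNGC and are not shown. All are matches of letters, not measured sites.

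The tested sodium-coupled neutral carriers of the Slc38a family had their highest mean either in Th17 or in Treg. Slc38a7 did not differ between these cell types in the main fit, and the Slc38a2 call between them was not stable. Slc38a1 (SNAT1), a glutamine importer, ranged from 287 to 308 CPM in CD8 (median 297), 275 to 319 in Th1 (285), 399 to 439 in Th17 (433) and 192 to 225 in Treg (212). CD8 and Th1 overlapped, all Th17 libraries were above them and all Treg libraries below. Its log2 fold change was -0.52 ± 0.05 for CD8 over Th17, and over Treg it was 0.49 ± 0.05 in CD8, 0.46 ± 0.05 in Th1 and 1.02 ± 0.05 in Th17. Slc38a10 ranged from 129 to 146 CPM in CD8 (median 137), 128 to 142 in Th1 (137), 184 to 219 in Th17 (196) and 97.2 to 139 in Treg (119). It shared the Th17 peak, with -0.52 ± 0.06 for CD8 over Th17 and no overlap there. Slc38a2 (SNAT2), which lies 44.5 kb from Slc38a1 on chromosome 15 in the coordinates of the file, had another order. It ranged from 229.8 to 284 CPM in CD8 (median 262), 207 to 275 in Th1 (220.2), 263 to 324 in Th17 (279) and 286 to 383 in Treg (311). Neighbours in this order overlapped, and the log2 fold change over Treg was -0.31 ± 0.07 in CD8, -0.50 ± 0.07 in Th1 and -0.17 ± 0.07 in Th17. The last (adjusted p = 0.037) did not pass in 20 of 24 fits without 1 library, with -0.12 (adjusted p = 0.170) without the Th17 DMSO library, and correction for gene length ended it and the CD8 call. The ratio of Slc38a1 to Slc38a2 per kilobase was 0.586 ± 0.0435 in CD8, 0.653 ± 0.0325 in Th1, 0.767 ± 0.0564 in Th17 and 0.338 ± 0.0422 in Treg.

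Slc38a6, Slc38a7 and Slc38a9 were lower in CD8 and Th1 than in Treg. Slc38a9, the lysosomal arginine sensor upstream of mTORC1, ranged from 18.03 to 21.2 CPM in CD8 (median 19.1), 15.3 to 21.4 in Th1 (20.04), 19.5 to 31.1 in Th17 (22.6) and 36.5 to 77.2 in Treg (48.5). Only Treg was free of overlap, with log2 fold changes of -1.42 ± 0.12 for CD8, -1.41 ± 0.12 for Th1 and -1.16 ± 0.12 for Th17 over Treg. Slc38a6 ranged from 6.35 to 10.0 CPM in CD8 (median 8.33), 8.12 to 11.9 in Th1 (10.0), 24.6 to 38.8 in Th17 (30.1) and 35.2 to 47.2 in Treg (45.4). It thus had a low pair, CD8 and Th1, and a high pair, Th17 and Treg, with -1.87 ± 0.12 for CD8 over Th17 and -0.52 ± 0.11 for Th17 over Treg. Slc38a7, a lysosomal glutamine exporter, averaged 15.9 ± 1.61 CPM in CD8, 17.1 ± 1.34 in Th1, 22.2 ± 3.35 in Th17 and 23.9 ± 4.60 in Treg (SD, n = 6 each). Th17 over Treg did not pass (log2 fold change -0.10 ± 0.11, adjusted p = 0.413), but was -0.45 with library-size scaling (adjusted p = 0.00177).

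Of the proton-coupled carriers, which act on small amino acids at lysosomes and at the surface, Slc36a1 and Slc36a4 were highest in Treg. Slc36a1 (PAT1) averaged 9.56 ± 1.08 CPM in CD8, 10.3 ± 0.996 in Th1, 15.6 ± 2.05 in Th17 and 33.2 ± 3.36 in Treg. Its lowest Treg library, at 27.7 CPM, was above its highest Th17 library, at 18.7, and Th17 in turn was above CD8 and Th1. The log2 fold change over Treg was -1.80 ± 0.10 in CD8, -1.69 ± 0.10 in Th1 and -1.09 ± 0.10 in Th17. Slc36a4 (PAT4), a carrier with high affinity for proline and tryptophan, averaged 25.999 ± 1.14 CPM in CD8, 30.2 ± 3.63 in Th1, 32.8 ± 2.19 in Th17 and 46.4 ± 5.01 in Treg. It moved less, by -0.83 ± 0.08, -0.62 ± 0.08 and -0.50 ± 0.08, also without overlap. The third, Slc36a3, stayed under 1 CPM and passed no test, and Slc36a3os, which overlaps it, had 636 reads against its 175.

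The facilitated carriers of the Slc43a family transport branched-chain amino acids, except Slc43a3, which carries purine nucleobases. Slc43a1 (LAT3) ranged from 1.31 to 2.70 CPM in CD8 (median 1.62), 1.42 to 3.24 in Th1 (2.11), 0.186 to 1.02 in Th17 (0.841) and 5.56 to 11.4 in Treg (7.45). Treg was above and Th17 below all other libraries, with log2 fold changes of -2.17 ± 0.23 for CD8 over Treg and -3.36 ± 0.25 for Th17 over Treg. Slc43a2 (LAT4) ranged from 30.3 to 35.5 CPM in CD8 (median 31.4), 20.9 to 28.3 in Th1 (23.4), 58.1 to 62.7 in Th17 (59.4) and 44.8 to 53.0 in Treg (47.3). The antisense gene Gm45606 overlaps it with 2682 reads against 18697. The 4 cell types did not overlap at all, and the order was Th17, Treg, CD8, Th1. Each step passed the test, though the one between Th17 and Treg (0.32 ± 0.07) was lost under library-size scaling (-0.027, adjusted p = 0.709). Slc43a3, 73.0 kb from Slc43a1 on chromosome 2, ranged from 56.0 to 69.7 CPM in CD8 (median 65.7), 45.0 to 50.8 in Th1 (47.3), 90.5 to 113 in Th17 (94.6) and 82.9 to 142 in Treg (128). Its Treg libraries fell into a low pair, below every Th17 library, and a high group, above every Th17 library, described with the agonists below. The log2 fold change of -0.26 ± 0.11 for Th17 over Treg (adjusted p = 0.0312) did not pass in 10 of 24 fits without 1 library, and was -0.18 (adjusted p = 0.136) without the Treg WMS-76 library. With the WT number of the column names as a block it was -0.041 (adjusted p = 0.723), a fit in which only the DMSO and WMS-83 libraries of Th17 bear on the difference.

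Of the 19 Slc6a genes 4 were tested. Slc6a6, the taurine importer, ranged from 209 to 236 CPM in CD8 (median 226), 185 to 203 in Th1 (199), 187 to 228 in Th17 (206) and 249 to 287 in Treg (262). Treg was above every other library by a small margin, at -0.24 ± 0.05 for CD8, -0.43 ± 0.05 for Th1 and -0.37 ± 0.05 for Th17 over Treg, and the CD8 call ended with gene length correction. Slc6a8, the creatine importer, ranged from 0.438 to 1.61 CPM in CD8 (median 1.46), 1.14 to 1.74 in Th1 (1.43), 10.2 to 13.7 in Th17 (11.4) and 11.3 to 15.7 in Treg (14.6). The low pair and the high pair were far apart, at -3.26 ± 0.19 for CD8 over Th17 and -2.99 ± 0.19 for Th1 over Th17. Th17 over Treg did not pass in the main fit (-0.28 ± 0.16, adjusted p = 0.102). It passed with library-size scaling (-0.63, adjusted p = 0.000855), with DESeq2 (-0.31, 0.0450) and with limma-voom (-0.30, 0.0368). Slc6a19, a neutral amino acid importer of kidney and gut, ranged from 3.21 to 4.75 CPM in CD8 (median 3.75), 0 to 0.346 in Th1 (0), 0 to 0.325 in Th17 (0.157) and 0.106 to 1.10 in Treg (0.546). CD8 stood alone, with 422 reads against 8 in Th1, 19 in Th17 and 73 in Treg. Slc6a9 (GlyT1), the glycine importer, averaged 17.2 ± 3.03 CPM in CD8, 17.0 ± 1.62 in Th1, 12.0 ± 1.06 in Th17 and 8.59 ± 2.96 in Treg. For Th17 over Treg the log2 fold change was 0.51 ± 0.14. With the WT number block it was 0.30 (adjusted p = 0.133), resting on the DMSO and WMS-83 libraries of Th17.

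CD8 and Th1 were the most alike. In CD8 over Th1, 5 of 30 transporter genes were called, all higher, against 16% of all tested genes (8.69% higher). Besides Slc6a19 (5.74 ± 0.64) these were Slc43a3 (0.45 ± 0.11), Slc43a2 (0.42 ± 0.07), Slc6a6 (0.19 ± 0.05) and Slc3a2 (0.17 ± 0.05). The Slc3a2 call (adjusted p = 0.0296) was lost in 6 of 24 fits without 1 library, with its highest adjusted p of 0.103 without the Th1 WMS-76 library. Th17 differed from both in more genes. In CD8 over Th17, 23 were called (10 higher, 13 lower), against 47.1% of all genes (24.3% higher, 22.8% lower), and in Th1 over Th17, 20 were called (8 higher, 12 lower), against 47.3% (24.1% higher, 23.2% lower). The shares of 76.7 and 66.7% lay above these backgrounds, a description without a test. Higher in Th17 than in CD8 and Th1 were Slc38a1, Slc38a6, Slc38a7, Slc38a10, Slc36a1, Slc43a2, Slc43a3, Slc1a4, Slc6a8, Slc7a2 and Slc7a4, and lower were Slc7a5, Slc3a2, Slc1a5, Slc7a3, Slc7a11, Slc43a1, Slc6a9 and Slc1a2. With the WT number of the column names as a block, CD8 over Th17 no longer passed for Slc38a7 (-0.20, adjusted p = 0.374) and Slc1a5 (0.22, adjusted p = 0.186), nor for Slc36a4, Slc6a6 and Slc7a7. In that fit the comparison rested on the Th17 DMSO and WMS-83 libraries, since WT number 1 occurs only in the other Th17 libraries. The fit also assumes that a WT number means the same in every cell type, so it cannot decide whether these calls hold. Cd8a stood at 33.9 to 111 CPM in Th17 libraries and at 12.7 to 14.6 in Th1, and the part of such cells in these differences was not tested.

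Genes that act beside the transporters were counted from lists chosen with earlier results of these data known. The counts below stand against 37.8% of all genes higher and 40.2% lower in CD8 over Treg, 37.3 and 40.1% in Th1 over Treg, and 36.5 and 38.3% in Th17 over Treg. Of 32 tested enzymes of amino acid use and synthesis, 24 were higher and 5 lower in CD8 over Treg, 24 and 4 in Th1 over Treg, and 21 and 5 in Th17 over Treg. Their median log2 fold changes were 0.85, 0.81 and 0.67, against -0.08, -0.09 and -0.09 for all genes. Cth, which makes cysteine, was 5.82 ± 0.17 higher in CD8 and 3.57 ± 0.19 higher in Th17 than in Treg, and Psat1 of serine synthesis 2.60 ± 0.07 and 1.95 ± 0.07, while Kynu of tryptophan breakdown was lower in CD8 than in Treg (-4.21 ± 0.24). Of 18 genes of the amino acid response, 12 were higher and 4 lower in CD8 over Treg, the same counts held for Th1, and 12 and 5 for Th17. Atf3, a stress-induced transcription factor, differed by 3.93 ± 0.11 for CD8 over Treg, Trib3, an inhibitor of ATF4, by 2.94 ± 0.11, and Asns, the asparagine synthetase, by 2.89 ± 0.12.

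Of the 29 genes of mTORC1 amino acid sensing, 13 were higher and 14 lower in CD8 and in Th1 over Treg, and 14 and 13 in Th17 over Treg, a split between higher and lower much like that of all genes given above. Rragd, a Rag GTPase, was lower in CD8 (-3.66 ± 0.13) and in Th1 (-3.42 ± 0.13) than in Treg, and Flcn, which acts on the Rag GTPases, was lower in CD8, Th1 and Th17 (-1.71 ± 0.09, -1.65 ± 0.09 and -1.21 ± 0.09). Lamtor1, the lysosomal anchor, was higher (1.56 ± 0.09, 1.64 ± 0.09 and 1.78 ± 0.09). Against the same shares of all genes, of 13 transcription factors known to act on transporter genes, 4 were higher and 9 lower in CD8 over Treg, 3 and 9 in Th1 over Treg, and 5 and 5 in Th17 over Treg. Myc averaged 439.5 ± 27.4 CPM in CD8, 372 ± 15.2 in Th1, 297 ± 12.1 in Th17 and 143 ± 34.2 in Treg, and its antagonist Mxd4 was lower in CD8 than in Treg (-1.64 ± 0.06). Of 25 other amino acid carriers, 9 were higher and 12 lower in CD8 over Treg, 10 and 13 in Th1 over Treg, and 8 and 10 in Th17 over Treg. Among them the vesicular glutamate carrier Slc17a6 was higher in CD8 (5.07 ± 0.33) and Th1 (6.16 ± 0.32) than in Treg, and the mitochondrial ornithine carrier Slc25a15 was higher in Th17 (2.52 ± 0.14).

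The KOR agonists left the transporter genes without a called difference across the 4 cell types. For the 20 agonist libraries over the 4 DMSO libraries, 0 of 30 were called by edgeR, against 0% of all genes, and DESeq2 and limma-voom also called 0. At an unadjusted p under 0.05 there was 1 gene by edgeR, 1 by DESeq2 and 2 by limma-voom. By edgeR it was Slc38a9, with a log2 fold change of -0.25 and a 95% interval of -0.48 to -0.01 (adjusted p = 0.992). The intervals were narrow for the abundant carriers, from -0.15 to 0.13 for Slc7a5, from -0.17 to 0.03 for Slc3a2 and from -0.18 to 0.14 for Slc1a5. For 19 of the 30 genes (63.3%) the whole interval lay within 0.5 on either side of 0, against 62.5% of all genes. For scarce genes it was wide, as for Slc7a11 from -0.63 to 0.97.

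**Figure D4:**
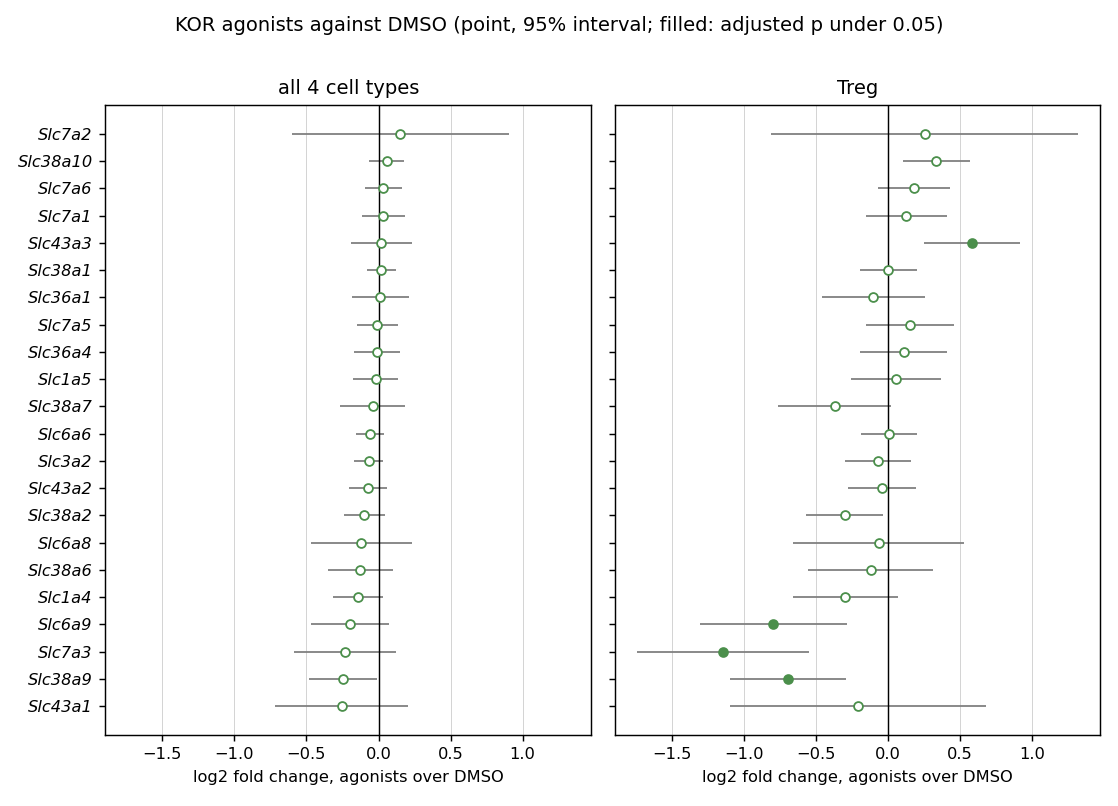
Log2 fold changes (x axis) of agonist over DMSO libraries across all 4 cell types (left) and in Treg (right), with 95% intervals, for the 22 tested transporter genes (y axis) that average at least 5 CPM in 1 cell type. No filled point stands on the left, and Slc43a3, Slc6a9, Slc7a3 and Slc38a9 are filled on the right.

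Single agonists over DMSO, each with 4 libraries against 4, gave 0 called transporter genes for all 5 compounds, against 0% of all genes for each. The smallest unadjusted p for a transporter gene was 0.0113, for Slc3a2 with WMS-75. Slc3a2 had 384 CPM with WMS-75 against 450.3 with DMSO in CD8, 351 against 400.15 in Th1, 277 against 299 in Th17 and 100.5 against 112.5 in Treg. It was lower in all 4 cell types, with a log2 fold change of -0.18 (95% interval -0.31 to -0.04), but the adjusted p was 1.00. With WMS-76 the smallest p was that of Slc1a4 (-0.25, interval -0.48 to -0.03, adjusted p = 0.989), with WMS-64 that of Slc6a9 (-0.40, -0.76 to -0.04, 0.752), and with WMS-83 that of Slc38a9 (-0.37, -0.69 to -0.06, 0.915). With WMS-200 none of the 30 reached an unadjusted p of 0.05, and the smallest p belonged to Slc7a4 (-0.77, -1.61 to 0.07).

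The 5 compounds, all at 0.1 µM, were also compared with each other in 10 pairs over the 4 cell types. In none of the 10 was a transporter gene called, against 0.0063% of all genes for WMS-200 over WMS-76 and 0% for the other 9 pairs. The pair with the smallest p was WMS-75 over WMS-83 in Slc3a2, at 384, 351, 277 and 100.5 CPM with WMS-75 against 434, 408, 336 and 114 CPM with WMS-83 in CD8, Th1, Th17 and Treg. WMS-75 was lower in all 4, with a log2 fold change of -0.21 (interval -0.35 to -0.08), an unadjusted p of 0.00273 and an adjusted p of 0.714. Its partner Slc7a5 gave -0.23 (interval -0.42 to -0.05) in the same pair and -0.21 (-0.40 to -0.03) for WMS-76 over WMS-83. These comparisons do not show that the compounds act alike, since for scarce genes such as Slc43a1 the interval reached from 0.08 to 1.297 (WMS-200 over WMS-64).

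Within single cell types the 5 agonist libraries were set against 1 DMSO library, which was assumed to vary like the rest. No transporter gene was called in CD8 (against 0.0063% of all genes), in Th1 (0%) or in Th17 (0.0378%). The smallest p-values belonged to scarce genes, Slc1a3 in CD8 (4.61 ± 2.81), Slc6a19 in Th1 (-4.30 ± 1.25) and Slc7a11 in Th17 (2.35 ± 1.23), each with an adjusted p of 1. The Th1 value of Slc6a19 rested on 0 to 0.056 CPM in the agonist libraries against 0.346 CPM with DMSO.

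In Treg 4 of 30 transporter genes were called (13.3%), 1 higher and 3 lower, against 8.82% of all genes (7.64% higher, 1.18% lower). Without 1 library at a time the count was 3 to 8, and it was 8 without the Treg WMS-200 library. Slc43a3 had 85.3 CPM with WMS-200, 130.2 with WMS-64, 125 with WMS-75, 138 with WMS-76 and 142 with WMS-83, against 82.9 CPM with DMSO. The WMS-200 library thus stood beside DMSO and the other 4 far above, and the log2 fold change over the 5 agonists was 0.58 ± 0.16 (adjusted p = 0.0255). Slc38a9 had 61.5, 43.4, 50.3, 46.7 and 36.5 CPM with the agonists in that order, against 77.2 CPM with DMSO. All 5 were below DMSO with WMS-200 the nearest, at -0.70 ± 0.20 (adjusted p = 0.0265). Slc6a9 had 10.7, 5.23, 7.29, 6.48 and 8.62 CPM in the same order, against 13.3 CPM with DMSO, again with WMS-200 nearest to DMSO (-0.80 ± 0.25, adjusted p = 0.0419). Its call was lost in 7 of 23 fits without 1 library, with adjusted p up to 0.0741. Slc7a3 had 2.80, 2.11, 3.62, 3.74 and 1.33 CPM with the agonists, against 6.01 CPM with DMSO, and here WMS-200 was in the middle of the agonist range (-1.14 ± 0.29, adjusted p = 0.0153).

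**Figure D5:**
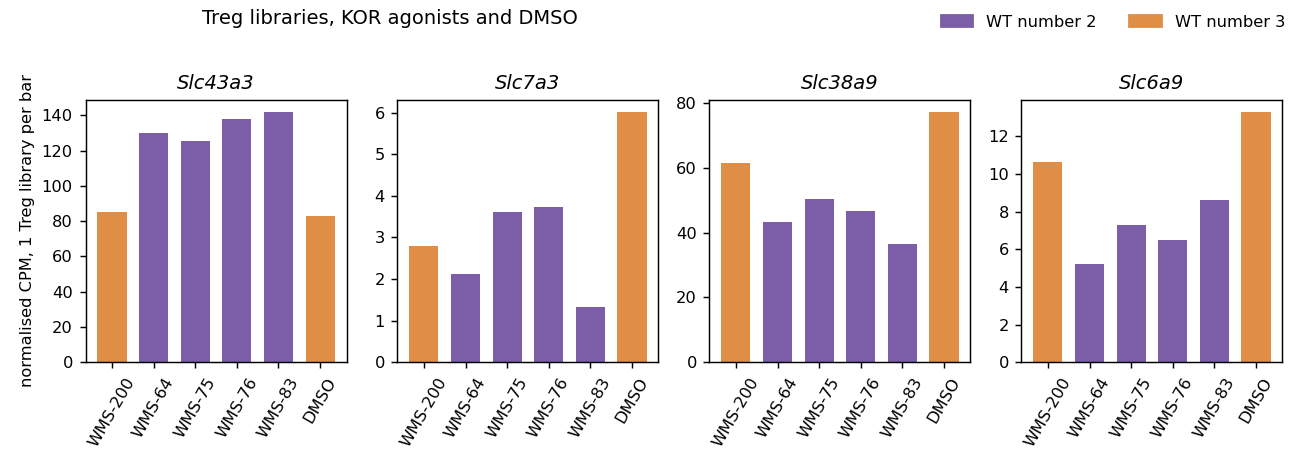
Normalised CPM (y axis, from 0) of Slc43a3, Slc7a3, Slc38a9 and Slc6a9 in the 6 Treg libraries, 1 bar each, coloured by the WT number in the column name. For Slc43a3, WMS-200 and DMSO, the 2 libraries of WT number 3, have the lowest bars at 85.3 and 82.9 CPM.

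Each library's column name carries a WT number of unexplained meaning. In Treg it is 3 for WMS-200 and DMSO and 2 for the other 4 libraries, so that it separates the Treg libraries in the way Slc43a3 does. With the WT number as a block, the Treg comparison rested on WMS-200 over DMSO, 1 library against 1. The log2 fold change was then 0.04 for Slc43a3, -0.33 for Slc38a9, -0.32 for Slc6a9 and -1.10 for Slc7a3. With 1 library on each side, that fit cannot decide whether the 4 calls hold. For the other 4 agonists, agonist and WT number cannot be told apart. No difference of the agonist effect between cell types was called among the 30 genes (against 0.176% of all genes), with the smallest adjusted p of 0.155 for Slc43a3.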

How the data were processed

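The authors deposited raw read counts, 1 column per library, with gene names, biotypes, coordinates and lengths. Per the submitters' processing notes, fastp, HISAT2 and featureCounts were used; their versions, strand setting and genome build are not given in the labels used here, so reads of overlapping genes cannot be told apart and promoter coordinates are RefSeq's. All columns were matched to samples (0 left over) by the column names in the labels. In 1 library the title reads Th17 but source name, characteristics and column read Th1, which was used.

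The transporter genes and other lists were chosen with earlier results of these data known. Genes were filtered with filterByExpr by cell type (minimum count 10), scaled by TMM and tested on all 24 libraries with the quasi-likelihood test of edgeR 4.0.16 in R 4.3.3, with Benjamini-Hochberg adjustment over 15885 genes (threshold 0.05). Cell types and compounds were compared in an additive model (15 residual degrees of freedom) and agonists within a cell type in a model of 8 groups (16). Errors are SE for log2 fold changes and SD for levels; intervals are at 95%. Lowest, median and highest levels are given for genes averaging 50 CPM or more in 1 cell type, or called with an absolute log2 fold change of 2 or more and averaging 2 CPM or more. For agonists the called genes or those of smallest p are named, and from other lists those among the 3 largest called changes. Alternatives were DESeq2 size factors, library size only, no filter, DESeq2 1.42.0, limma-voom (limma 3.58.1), gene length offsets, the WT number as a block, subsets of libraries and each library left out. The tests were tried on simulated data.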

Additional observations from a re-analysis of the deposited data

Results flagged for a closer look

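In 7 of 106 groups of 6 libraries 1 library stood apart from the rest, where chance alone gives about 1 in 20. In Th17, the WMS-75 library was high for Slc38a7 (29.0 CPM, the others 20.4 to 21.6) and for Slc38a9 (31.1 CPM, the others 19.5 to 23.7). In Th1, WMS-83 was high for Slc38a2 (275 CPM, the others 207 to 232), WMS-200 was low for Slc38a9 (15.3 CPM, the others 19.7 to 21.4) and DMSO was high for Slc7a4 (2.72 CPM, the others 0.474 to 1.26). In CD8, WMS-76 was high for Slc43a2 (35.5 CPM, the others 30.3 to 31.9). In Th17, WMS-200 was high for Slc3a1 (2.33 CPM, the others 0.815 to 1.32), a gene whose counts are uncertain. Each of these compounds had 1 library in the cell type.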

How the results depend on the processing

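For CD8 over Th1 the count of called transporter genes was 5, and 3 with no filter, 8 with DESeq2 and 9 without the Treg libraries. For agonists over DMSO in Treg it was 4. With the WT number as a block that comparison rested on 1 WMS-200 library against 1 DMSO library, so no count is given for it. For the difference of the agonist effect between cell types the count was 0, and 2 with no filter. Leaving out 1 library at a time gave 4 to 6 for CD8 over Th1, 3 to 8 for agonists over DMSO in Treg (8 without the Treg WMS-200 library) and 0 to 1 for the difference between cell types (1 without the same library). The other counts stayed within 1.5 times under every alternative that was run, at 21 to 24 for CD8 over Th17, 26 to 27 for CD8 over Treg, 20 to 21 for Th1 over Th17, 24 to 25 for Th1 over Treg, 21 to 24 for Th17 over Treg and 27 to 29 for any difference when 1 library was left out. With library size as the only scaling, Slc38a10 was -0.12 for CD8 over Treg and -0.16 for Th1 over Treg, and both passed. Slc7a6 was -0.10, -0.064 and -0.016 for CD8, Th1 and Th17 over Treg, and Slc43a2 was -0.027 for Th17 over Treg, none of which passed. TMM factors of 1.14 to 1.25 in Treg and 0.907 to 0.996 elsewhere differ by construction between these scalings. Of the 11 genes higher in Treg, 7 kept all 3 calls in every alternative run, and of the 9 lower, 5 did (Slc7a5, Slc7a1, Slc3a2, Slc1a4 and Slc7a3). With the WT number block 18 genes were called for CD8 over Th17, 26 for CD8 over Treg and 23 for Th17 over Treg, without a share of all genes to set beside them. The comparisons with Th17 in that fit rested on its DMSO and WMS-83 libraries. Differences from Th1 could not be estimated with the block, since all Th1 libraries and no others bear WT number 4. DESeq2 was not run for tests over several terms. Genes of a few CPM or less, such as Slc1a3, Slc36a3 and Slc7a7, have intervals too wide to show small differences.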

Other observations

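Among the 31 transporter genes with too few reads for a test, 6 with more than 50 reads over the 24 libraries are described here. Slc6a12, the betaine and GABA importer, had 13 reads in CD8, 30 in Th1, 2 in Th17 and 158 in Treg. Its Treg libraries were uneven, with 0.136 CPM with WMS-200, 1.93 with WMS-64, 0.319 with WMS-75, 1.60 with WMS-76 and 3.20 with WMS-83, against 0.369 CPM with DMSO. Slc38a8 had 59, 24, 2 and 35 reads, Slc38a3 had 21, 42, 3 and 16, Slc1a1 had 8, 20, 3 and 45, Slc38a11 had 16, 33, 4 and 12, and Slc7a8 had 6, 29, 7 and 19 reads in CD8, Th1, Th17 and Treg. These 6 had fewer reads in Th17 than in Th1 and Treg. Because they were below the minimum for a test, these are counts only.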
